A study of Mus musculus with 4 samples.

Results

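The thin filament of striated muscle carries the calcium switch of the heartbeat, and 10 genes of that switch are described here: the troponin I genes Tnni1 and Tnni3, the troponin T genes Tnnt1, Tnnt2 and Tnnt3, the troponin C genes Tnnc1 and Tnnc2, and the tropomyosin genes Tpm1, Tpm2 and Tpm3. A probe was taken for one of these genes when the name given to it in the array files was a RefSeq or Ensembl transcript of that gene, whatever its signal. All 10 genes had a probe, out of 21659 genes with one, and they held 20 of 55681 non-control probes, 17 named by a RefSeq transcript and 3 by an Ensembl transcript. Of these genes, 5 had 1 probe, 3 had 2 probes, Tpm3 had 3 and Tpm1 had 6.

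RNA of the mouse heart was measured after transverse aortic constriction (TAC), an operation that narrows the aorta and loads the left ventricle with pressure, and after a sham operation. There were 4 groups of male mice: sham and TAC at 2 weeks after surgery, labelled as 10 weeks old, and sham and TAC at 8 weeks, labelled as 16 weeks old. The study's methods name C57BL/6J mice, describe no gene alteration in this screen, state another age at surgery than the labels imply, and mix the RNA of several mice for each array. The 2-week time stood for hypertrophic growth in the study and the 8-week time for heart failure. Each group was thus 1 array of 1 pool (n = 1), so no spread between mice could be measured and no p-value is given for a difference at 1 time. A test over both times together, with time as a block, is given after the single genes.

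Troponin is a complex of 3 subunits, of which troponin C binds calcium, troponin I holds the contraction back in the absence of calcium, and troponin T ties the complex to tropomyosin. Tropomyosin is a coiled coil that lies along actin and moves aside when calcium binds, so that myosin can attach. Each subunit comes from a small gene family whose members are used in different muscles: Tnni3 and Tnnt2 are the cardiac forms, Tnni1 and Tnnt1 are the forms of slow skeletal muscle, Tnnt3 and Tnnc2 those of fast skeletal muscle, and Tnnc1 serves both the heart and slow muscle. In the developing heart Tnni1 comes before Tnni3, and tropomyosin messages are spliced in different ways in striated muscle, smooth muscle and other cells.

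Sequences of Tpm1 are shown first because the results turn on which Tpm1 message a probe stands for. The 6 Tpm1 probes were named by 5 transcripts, which share 5 exons and differ at the start, at exon 2, at exon 6 and at the last exon. Exon 2 exists in 2 forms of 126 bases, of which the form in NM_001164249 is the one used in smooth muscle and the form in NM_001164248 that of striated muscle. Both are coding, they are given 5′ to 3′ from the GENCODE transcripts, and the bases in capitals are those that differ at the same position of the other form.
Tpm1 exon 2 of NM_001164248, bases 196 to 321: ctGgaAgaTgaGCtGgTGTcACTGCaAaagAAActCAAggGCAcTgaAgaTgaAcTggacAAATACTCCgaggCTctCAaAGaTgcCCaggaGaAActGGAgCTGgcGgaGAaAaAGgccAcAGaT
Tpm1 exon 2 of NM_001164249, bases 250 to 375: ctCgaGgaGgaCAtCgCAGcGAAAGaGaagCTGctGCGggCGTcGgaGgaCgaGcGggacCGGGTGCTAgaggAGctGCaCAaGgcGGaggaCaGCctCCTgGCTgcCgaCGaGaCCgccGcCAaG
The pair matched at 60 of 126 bases, or 47.6%. Exon 6 likewise exists in 2 coding forms of 76 bases, 1 of them found only in NM_001164251 among these transcripts.
Tpm1 exon 6 of NM_001164248, bases 645 to 720: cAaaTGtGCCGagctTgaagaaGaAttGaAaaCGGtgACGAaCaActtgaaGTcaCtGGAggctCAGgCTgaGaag
Tpm1 exon 6 of NM_001164251, bases 696 to 771: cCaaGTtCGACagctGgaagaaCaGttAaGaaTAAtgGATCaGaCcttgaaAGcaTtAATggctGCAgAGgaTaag
These forms matched at 43 of 76 bases, or 56.6%. The transcripts NM_001164255, NM_001164249 and ENSMUST00000030185 each ended in a last exon that none of the others had. The files used here do not give the position of a probe within its transcript, so a probe is called by the transcript in its name, and whether it also bound other Tpm1 messages or those of a related gene was not tested.

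The promoters of Tnnt1 and Tnni3 are shown because these genes lie next to each other on chromosome 7 and were both lower on both TAC arrays. The RefSeq promoter table (GRCm38.p6, 250 bases before to 50 after the start of the gene) held 12 promoters of 9 of the 10 genes and none under the name Tnnt3. The sequences run 5′ to 3′ on the minus strand, and the capitals mark matches to TATAAA, the TATA box, or to GATAA, the site bound by GATA factors, on either strand.
Tnnt1, chr7:4515926-4516225: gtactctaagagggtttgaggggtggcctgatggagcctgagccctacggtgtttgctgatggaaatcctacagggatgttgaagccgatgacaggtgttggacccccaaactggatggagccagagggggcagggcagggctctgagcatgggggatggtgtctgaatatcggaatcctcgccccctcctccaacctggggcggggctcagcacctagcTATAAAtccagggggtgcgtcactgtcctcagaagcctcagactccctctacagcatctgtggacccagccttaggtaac
Tnni3, chr7:4522479-4522778: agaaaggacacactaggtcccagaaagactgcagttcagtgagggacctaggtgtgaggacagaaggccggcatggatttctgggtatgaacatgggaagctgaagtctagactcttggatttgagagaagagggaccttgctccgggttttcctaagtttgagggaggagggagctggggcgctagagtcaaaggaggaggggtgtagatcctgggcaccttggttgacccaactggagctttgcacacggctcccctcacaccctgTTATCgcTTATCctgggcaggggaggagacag
TATAAA stood 30 bases before the start of Tnnt1 and occurred in 13.6% of the 32851 promoters of the table. GATAA occurred in 25.4% of them, and Tnni3 held it at 2 places, both just after the start and both on the opposite strand. Another motif searched was CATTCC, the MCAT element that TEAD factors bind, which 14.7% of all promoters held. Among the 12 promoters of these genes it was found in Tnnc1, in Tnnt2 and in Tpm1, and GATAA was found in 4 promoters. The MEF2 element was in 0.557% of all promoters and the CArG box in 1.63%, and neither was in any of the 12. TATAAA can lie within a MEF2 element or a CArG box, the other motifs do not hold each other, and a match describes letters in this window only.

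Levels are given as multiples of the array's own 75th percentile of signal over non-control probes, and a change is the log2 of the ratio of 2 such values. The percentile itself was 206, 206, 221 and 248 units of intensity on the arrays of sham at 2 weeks, TAC at 2 weeks, sham at 8 weeks and TAC at 8 weeks, which is also the order of the values in each sentence that follows. The scanner software marks signals that lie well above background, and a probe with that mark is called measured on the array, which held for 54.7% to 58.5% of all probes. Of the 20 probes of these genes, 17 were measured on every array, 2 on some and 1 on none, and no spot was saturated. On each array some probes lie in several spots, and the log2 ratio of a pair of such spots had an SD of 0.0944 above the 75th percentile and 0.284 below 0.25 of it, which covers the error of a spot and leaves out that of labelling, hybridization and mice. Levels of different probes depend on the probe as well as on the RNA, so no level is set against that of another probe.

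The pools labelled TAC were checked first with genes known to rise under pressure load. All 4 genes of the list for hypertrophy were over 2-fold higher on the TAC array at both times: skeletal actin Acta1 by 3.09 and 3.41 on the log2 scale, Myh7 by 2.71 and 3.69, Nppa by 1.84 and 2.65, and Nppb by 1.03 and 1.94. The 8 genes that define cardiomyocytes, such as Myh6 and Ttn, were measured on every array, and their median change was -0.04 and -0.16. Their changes ran from -0.42 for Pln to 0.16 for Actn2 at 2 weeks. At 8 weeks they ran from -0.63 for Ryr2 to 0.23 for Actn2.

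Beside the hypertrophy genes, the differences of the troponin and tropomyosin genes were small. At 2 weeks 0 of the 9 genes measured on all arrays was over 2-fold higher or lower after TAC by its brightest probe, against 1.41% of all probes measured on both arrays. At 8 weeks it was again 0 of 9, against 2.42%. With so few genes and such shares, a count of 0 is no result about them. By the brightest probe, the sign of the smaller differences was the same at both times in 9 of 9 genes. The same held for 69.9% of 14247 genes measured on all arrays. Tnnc1, Tnnt3, Tpm2 and Tpm3 were higher on the TAC array at both times, and Tnnc2, Tnni3, Tnnt1, Tnnt2 and Tpm1 were lower at both. Dimmer probes of Tnnt3 and Tpm1 did not all share these signs. The other Tnnt3 probe was -0.11 at 2 weeks, and the Tpm1 probe named by NM_001164255 was 0.16 and 0.04. The 2 comparisons used separate sham and TAC arrays. In 3 genes a sign depended on the processing: Tpm1 at 2 weeks was 0.04 under quantile normalization and 0.07 as the mean of its probes, Tnnt2 at 8 weeks was 0.03 without normalization between arrays, and Tnnt3 at 8 weeks was -0.03 with another background correction. In whole-heart RNA, fewer cells of a type and less RNA per cell cannot be told apart.

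The sham arrays at 8 and 2 weeks give a measure of how far apart pools lie without TAC, although age differs between them. For these 9 genes the change between the shams ran from -0.26 for Tnnt3 to 0.09 for Tnnc2, with a median size of 0.04 and 0 of 9 past 2-fold (0.738% of all probes), while the median size of the TAC change was 0.25 at 2 weeks and 0.35 at 8 weeks. Over all measured probes the median size was 0.12 between the shams, 0.15 for TAC at 2 weeks and 0.18 for TAC at 8 weeks. Over those with a mean signal above the 75th percentile it was 0.085, 0.113 and 0.134. With every measured probe of these genes in place of the brightest, it was 0.05, 0.20 and 0.25. In 8 of the 9 genes, and in 46.4% of the 14247 genes measured on all arrays, the TAC change was larger in size than the gene's own difference between shams at both times, the exception being Tnnc2, whose TAC change at 2 weeks was -0.05. The sham comparison shares an array with each TAC comparison, so these sizes are not independent of each other.

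**Figure D1:**
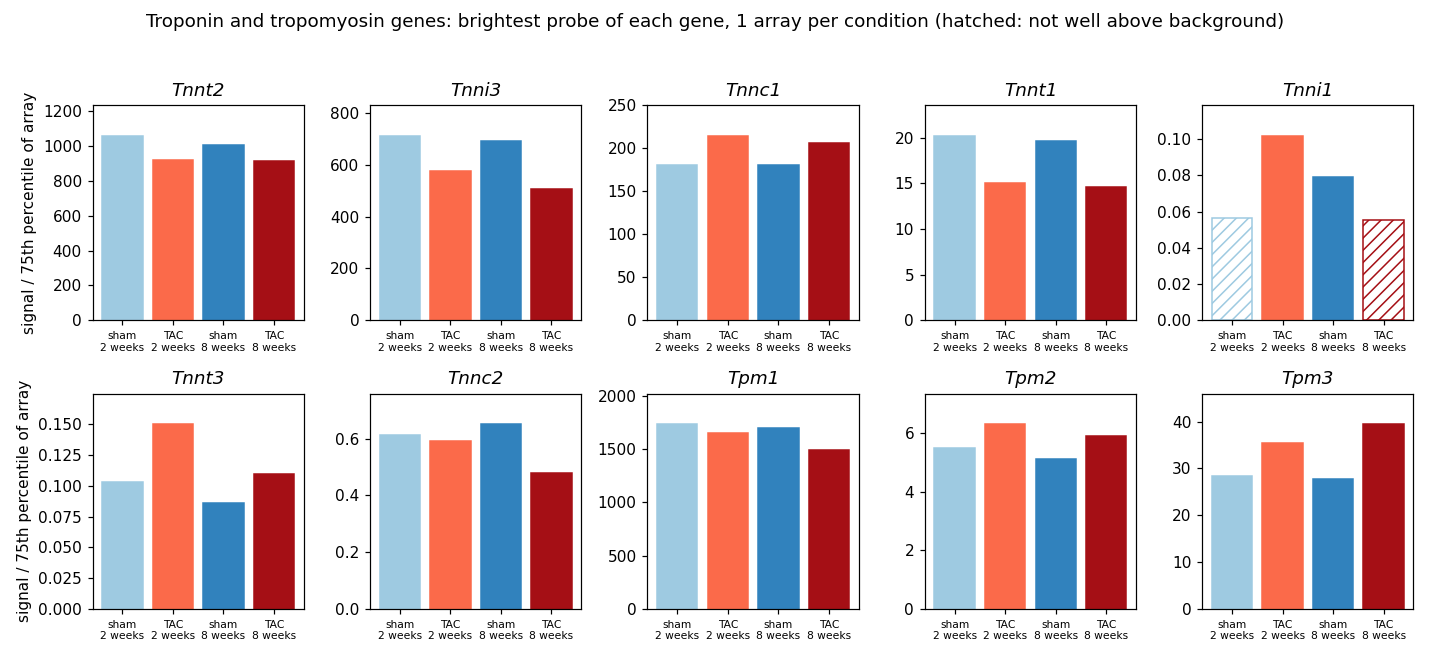
Signal of the brightest probe of each gene as a multiple of the array's 75th percentile, with 1 bar per array, the y axis starting at 0 and scaled to each gene. Tnni3 and Tnnt1 stood below both shams on both TAC arrays, Tpm3 stood above both shams on both TAC arrays, and the hatched bars of Tnni1 were not well above background.

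The cardiac troponin T gene Tnnt2 read 1061, 922, 1008 and 915, so both TAC arrays lay below both shams. It was 13.1% lower after TAC at 2 weeks and 9.22% lower at 8 weeks, or -0.20 and -0.14 in log2, against -0.07 between the shams. Both changes were smaller than the 0.24 that held 90% of bright probes between the shams, and without normalization the change at 8 weeks was 0.03.

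Cardiac troponin I, Tnni3, is the target of the kinase that adrenergic stimulation switches on. Its level was 712 and 693 on the sham arrays of 2 and 8 weeks and 575 and 505 on the TAC arrays. It was 19.2% lower at 2 weeks and 27.1% lower at 8 weeks, or -0.31 and -0.46 in log2, while the shams differed by -0.04. Over the 8 other settings of the processing the change stayed between -0.35 and -0.28 at 2 weeks and between -0.47 and -0.29 at 8 weeks.

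Tnnc1, the calcium sensor of cardiac and slow muscle, went the other way. It read 180.4, 214, 180.2 and 206, with both shams at the same level to within 0.151% and both TAC arrays above them. It was 18.8% higher at 2 weeks and 14.1% higher at 8 weeks, or 0.25 and 0.19 in log2. The difference at 8 weeks lay within the 0.24 that held 90% of bright probes between the shams.

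Of the slow skeletal forms, Tnnt1 was measured by 2 probes. The brighter probe, named by NM_011618, read 20.2, 15.02, 19.7 and 14.6, and the dimmer, named by ENSMUST00000108587, read 1.41, 1.21, 1.31 and 1.11. Both probes put both TAC arrays below both shams. The brighter probe was 25.7% lower at 2 weeks and 25.6% lower at 8 weeks, or -0.43 at each time, and the dimmer -0.22 and -0.25. At 2 weeks the change of the brighter probe was the lowest of all 18 measured probes of these genes. It also lay outside the 5th to 95th percentile of all probes above the 75th percentile, which ran from -0.36 to 0.37 at 2 weeks and from -0.38 to 0.47 at 8 weeks.

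Tnni1, the troponin I of slow muscle and of the fetal heart, was at the edge of detection. Its 1 probe read 0.0564, 0.102, 0.0789 and 0.0551, and it was well above background on the arrays of TAC at 2 weeks and sham at 8 weeks only. At 2 weeks it was at least 1.70-fold higher after TAC, and at 8 weeks at least 1.43-fold lower. Each bound divides the signal of the brighter array by the probe's own signal on the other array or by the lowest signal still marked as above background there, whichever is higher. Between the shams it was at least 1.32-fold higher at 8 weeks. These bounds hold for the processed signal alone: with normexp, another background correction, the log2 changes were 0.11 and -0.11, and -0.11 between the shams, so the sham difference turned. At this brightness a pair of spots of the same probe differed with an SD of 0.284 on the log2 scale where well above background and 0.568 where not.

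The fast skeletal troponin T gene Tnnt3 had 2 dim probes. The probe named by NM_011620 read 0.103, 0.150, 0.0863 and 0.110, well above background on every array, with both TAC arrays above both shams. It exceeded sham 1.45-fold at 2 weeks and 1.27-fold at 8 weeks, or 0.54 and 0.35 in log2, against -0.26 between the shams. With the other background correction these changes were 0.16 and -0.03.

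The other Tnnt3 probe, named by NM_001163664, read 0.0871, 0.0809, 0.0385 and 0.122. Its sham array at 8 weeks was not well above background, and the TAC array at 8 weeks was the highest of the 4. It was thus at least 2.25-fold higher after TAC at 8 weeks, was 1.08-fold lower at 2 weeks, and was at least 1.61-fold lower in the sham of 8 weeks than in that of 2 weeks. With normexp its log2 change was 0.14 at 8 weeks and -0.32 between the shams, in place of 1.66 and -1.18, so neither was then past 2-fold, and 1 dim array enters both bounds. At 2 weeks the 2 probes differed in sign, and at 8 weeks with normexp they did so too.

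Tnnc2, the troponin C of fast muscle, read 0.611, 0.590, 0.650 and 0.479. The TAC array of 8 weeks was the lowest of the 4 and was 26.4% below its sham, or -0.44 in log2, whereas at 2 weeks the change was -0.05. Tnni2, the fast troponin I, has no place among the 10 genes and is given as the remaining paralog: it read 2.28, 1.98, 1.79 and 1.23, changes of -0.20 and -0.54, with -0.35 between the shams.

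**Figure D2:**
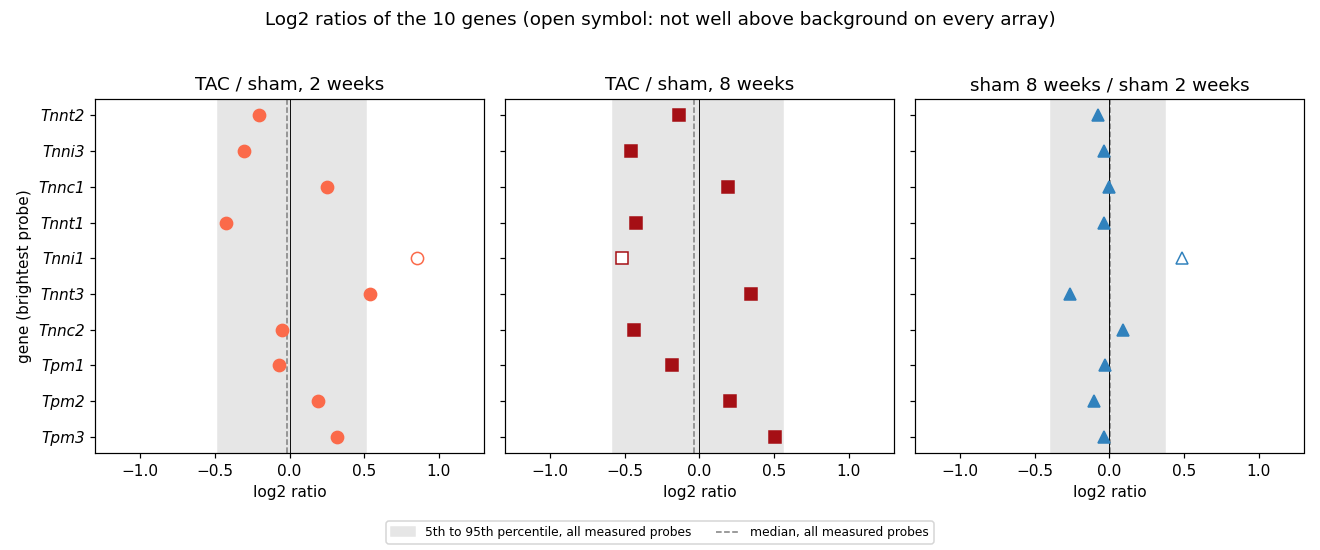
Log2 ratio of each gene's brightest probe (x axis) for TAC over sham at 2 weeks, TAC over sham at 8 weeks and sham at 8 weeks over sham at 2 weeks, with the 5th to 95th percentile of all probes measured on both arrays in grey. Tnni3 moved from -0.31 to -0.46 and Tpm3 from 0.32 to 0.51 between the 2 and 8 week comparisons, and the filled symbols of the sham panel lie between -0.26 and 0.09.

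Among the tropomyosins, Tpm1 encodes the main form of the mouse ventricle. The probe with the highest signal, named by NM_001164248, read 1730.3, 1649.5, 1693 and 1490.2. Its TAC arrays were the lower of each pair, by 4.67% at 2 weeks and 11.99% at 8 weeks, or -0.07 and -0.18 in log2. The second probe named by the same transcript read 1126, 1138, 1085 and 966, changes of 0.02 and -0.17. The differences at 8 weeks depended on the scaling: without normalization the first probe was -0.02, and the second read 240057 units of intensity in sham and 240118 in TAC. Under quantile normalization the first was -0.04.

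The 4 dimmer Tpm1 probes differed from these and from each other at 8 weeks. The probe named by ENSMUST00000030185, a transcript with the striated forms of exons 2 and 6 and a longer last exon of its own, read 0.637, 0.628, 0.757 and 0.336. It was well above background on all 4 arrays, the TAC array of 8 weeks was the lowest, and it was 2.25-fold lower there than in its sham, or -1.17 in log2, whereas at 2 weeks the change was -0.02. This was the 1 member probe measured on both arrays that passed 2-fold at 8 weeks, of 17, where 2.42% of all such probes did. Without normalization its change was -1.004 and with the other background correction -0.78.

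The probe named by NM_001164251, the transcript with the alternative exon 6, read 0.232, 0.255, 0.289 and 0.189. It was 1.53-fold lower after TAC at 8 weeks, -0.61 in log2, and 0.14 at 2 weeks. For this probe and the one before, the sham of 8 weeks was the highest of the 4 arrays, at 0.32 and 0.25 above the sham of 2 weeks, and the TAC array of 8 weeks was also the lowest of the 4.

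The probe named by NM_001164249, which carries the smooth muscle form of exon 2, read 0.945, 1.09, 1.22 and 1.20. TAC exceeded sham 1.15-fold at 2 weeks and was 1.01-fold lower at 8 weeks, and its largest difference was between the shams, 1.29-fold higher at 8 weeks. The probe named by NM_001164255, which ends in another last exon, read 4.30, 4.80, 4.41 and 4.52, changes of 0.16 and 0.04. The fall of over 2-fold was thus seen with 1 of the 6 Tpm1 probes, and the difference between probes was not tested.

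**Figure D3:**
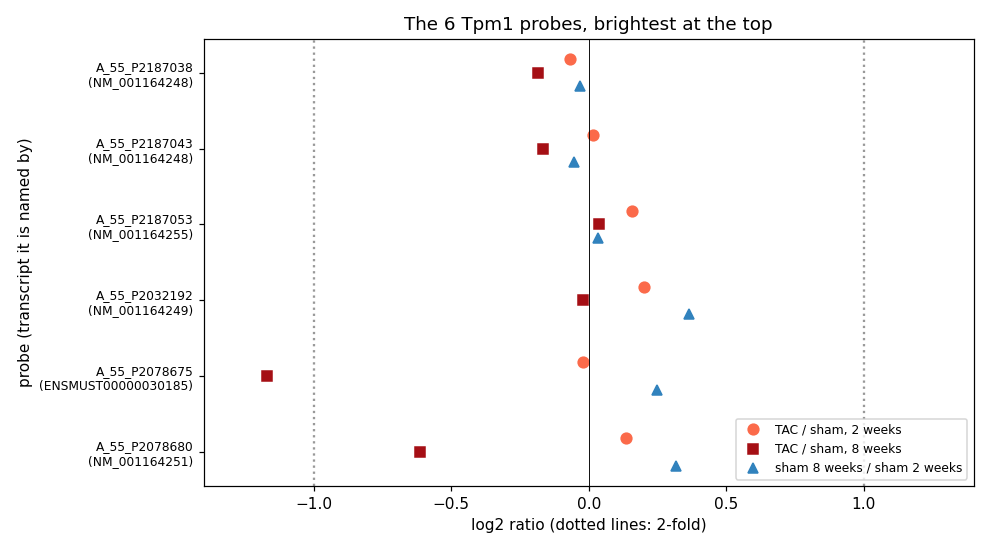
Log2 ratios (x axis) of the 6 Tpm1 probes, each labelled with its probe name and the transcript it is named by, for TAC over sham at 2 weeks, at 8 weeks and sham over sham. At 8 weeks the probe named by ENSMUST00000030185 stood at -1.17 and the probe named by NM_001164251 at -0.61, while the other 4 lay between -0.18 and 0.04.

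Tpm2, the beta-tropomyosin of skeletal muscle and of the fetal heart, was measured by 2 probes named by the same transcript. The brighter read 5.50, 6.29, 5.12 and 5.91 and the dimmer 4.07, 4.96, 4.21 and 4.89. In each, both TAC arrays lay above both shams. The changes were 0.19 and 0.21 for the brighter probe and 0.28 and 0.22 for the dimmer in log2, against -0.10 and 0.05 between the shams.

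Tpm3 encodes slow muscle tropomyosin and, by other splicing and another start, forms of the cytoskeleton. Its brightest probe, named by NM_022314, read 28.4, 35.5, 27.8 and 39.4, with both TAC arrays above both shams. It was 24.9% higher at 2 weeks and 41.9% higher at 8 weeks, or 0.32 and 0.51 in log2, against -0.03 between the shams. The change at 8 weeks was the highest of the 17 measured probes of these genes and lay above the 95th percentile of bright probes, 0.47. A dimmer probe named by ENSMUST00000121503 read 0.680, 0.733, 0.688 and 0.864, which is 1.08-fold higher at 2 weeks and 1.26-fold at 8 weeks. The remaining probe, also named by NM_022314, was not well above background on any array and gives no change. Tpm4, a cytoskeletal tropomyosin outside the 10 genes and given as the remaining paralog, read 16.8, 19.8, 17.0 and 22.7, changes of 0.24 and 0.41.

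Counted at a lower threshold of 1.25-fold, which was chosen after the values had been seen, 2 of 18 measured probes of these genes passed at 2 weeks, where 22% of all measured probes did. At 8 weeks it was 8 of 17, where 26.7% did, with 3 higher against 11.6% and 5 lower against 15.1%. Between the shams it was 1 of 17, against 14.4%. The 8 probes at 8 weeks came from Tnnc2, Tnni3, Tnnt1, Tnnt3, Tpm1 and Tpm3, and 2 each of them belonged to Tpm1 and Tpm3, so they are not independent of each other. With probes included that were well above background on the brighter array only, the count over 2-fold was 0 of 20 at 2 weeks against 2.89%, 2 of 20 at 8 weeks against 3.65%, and 1 of 20 between the shams against 2.35%. The probe between the shams was the Tnnt3 probe named by NM_001163664, whose ratio passed 2-fold only against a signal not well above background and whose bound was 1.61-fold.

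Taken over both times, TAC was compared with sham by limma with time as a block, a comparison of 2 pairs of arrays that was added after the values had been seen and counts any difference between the 2 times as error. Of 29262 probes measured on all arrays 0% passed an adjusted p of 0.05, and 18.2% had an unadjusted p below it. Among the 17 probes of these genes 0 passed and 4 had an unadjusted p below 0.05, those of Tnni3, Tnnt1, Tnnt3 and Tpm3 with the highest signal. Their log2 changes were -0.38 (SE 0.0916) for Tnni3, -0.43 (SE 0.0822) for Tnnt1, 0.44 (SE 0.0970) for Tnnt3 and 0.41 (SE 0.0962) for Tpm3. These SEs are moderated by limma, with 2.39 degrees of freedom drawn from all probes against 1 of the probe itself. The part drawn from all probes took no account of brightness, while pairs of spots as dim as Tnnt3 differed with an SD of 0.284. The SE of Tnnt3 may thus be too small. With normexp the Tnnt3 changes at 2 and 8 weeks were 0.16 and -0.03. The limma adjusted p was 0.211 for Tnni3, 0.195 for Tnnt1, 0.201 for Tnnt3 and 0.207 for Tpm3. No difference of these genes thus passed a test that adjusts for all probes. Since 0% of all probes passed it, this is no result about these genes in particular.

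The scaling of an array moves all its probes together, so the balance between paralogs was compared as the difference of their log2 changes within the same pair of arrays. The change of Tpm3 exceeded that of Tpm1 by 0.39 at 2 weeks and 0.69 at 8 weeks, where the value between the shams was -0.0034. That of Tpm2 exceeded it by 0.26 and 0.39, with -0.07 between the shams. Both differences kept their sign under the 8 other settings, and the lowest were 0.14 for Tpm3 and 0.17 for Tpm2.

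Within the troponins, the change of Tnnc2 minus that of Tnnc1 was -0.30 at 2 weeks and -0.63 at 8 weeks, with 0.09 between the shams. For Tnnt1 minus Tnnt2 it was -0.23 and -0.29, with 0.03 between the shams. For Tnnt3 minus Tnnt2 it was 0.74 and 0.49, with -0.19 between the shams, although with the other background correction these were 0.35 and 0.05. These values use the brighter Tnnt3 probe. At 2 weeks the other Tnnt3 probe changed by -0.11 and Tnnt2 by -0.20. For Tnni1 minus Tnni3 the values were 1.16 and -0.06, with 0.52 between the shams, and since Tnni1 was not measured on every array they have no settled size.

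**Figure D4:**
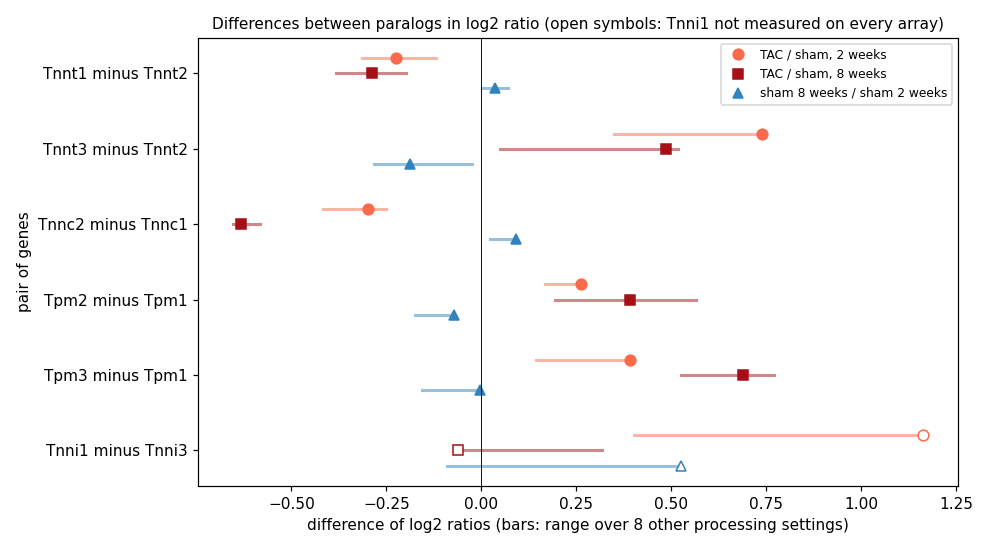
Difference of log2 ratios between pairs of paralogs (x axis) in the 2 TAC comparisons and between shams, with symbols at the values given in the text and bars for the range over the 8 other processing settings. Tpm3 minus Tpm1 stood at 0.39 and 0.69 after TAC and at -0.0034 between shams, and the bars of Tnni1 minus Tnni3 cross 0 at 8 weeks and between shams.

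Of 17 other genes of the thin filament, such as actins, nebulin, leiomodins and tropomodulins, 17 were measured on every array, with a median change of 0.01 at 2 weeks and 0.09 at 8 weeks. Of these, 2 were over 2-fold higher at both times and 0 were lower: Acta1, given above, and Xirp2, an actin-binding protein of the intercalated disc, at 1.43 and 1.88. Cardiac actin Actc1 read 1974, 1986, 1864 and 1721. Its changes were 0.01 and -0.12.

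The kinases and phosphatases that act on troponin and tropomyosin had 0 of 11 genes past 2-fold at either time, where 2.89% and 3.65% of all probes were, with changes from -0.58 to 0.57 at 2 weeks and from -0.42 to 0.88 at 8 weeks among the 10 measured on all arrays. The lowest at 2 weeks was Tnni3k, a cardiac kinase that binds Tnni3, and the highest at both times was Prkg1, the kinase that cyclic GMP activates. Of 10 factors known to splice muscle messages, 0 passed 2-fold, beside the same shares, and the median was -0.05 and -0.06. The lowest was Rbfox1, which read 13.8, 7.70, 17.0 and 9.40, both TAC arrays below both shams, or -0.84 and -0.85 in log2. It is named here as the end of its list's range, and its part in the Tpm1 probes was not tested.

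Markers of other cells moved on the same arrays. Of 16 genes listed for skeletal muscle, 10 were measured on all arrays and 5, among them the fast myosin heavy chains Myh1, Myh2 and Myh4, were not well above background on any. The summed level of the 16 was 85.7, 109, 79.5 and 129. Of this, Ckmt1, which is not particular to skeletal muscle, gave 25.4, 25.6, 24.7 and 23.6. The median change of those measured was 0.10 and -0.10, with 6 higher and 4 lower at 2 weeks and 4 higher and 6 lower at 8 weeks. Over 2-fold higher were Casq1 at 2 weeks (1.24), Mybpc2 at both (1.95 and 1.64), and Myl1 (1.46), Myot (1.90) and Ryr1 (at least 2.55-fold) at 8 weeks. Over 2-fold lower were 0, the lowest being Cacna1s at 2 weeks (-0.86) and Tnni2 at 8 weeks (-0.54). Of all probes, 2.89% and 3.65% passed 2-fold, which also stands beside the lists below. The part of skeletal muscle cells in the values of Tnnt1, Tnnt3, Tnnc2 and Tnni2 was not tested.

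Of 8 smooth muscle markers, 7 were measured on all arrays, and 5 of these were higher and 2 lower at each time. Their median change was 0.08 and 0.19. The 2 lower were Smtn (-0.32 and -0.58) and Acta2 (-0.01 and -0.40). The summed level of the 8 was 110.3, 104, 118 and 92.6, of which Smtn gave 62.9, 50.4, 69.6 and 46.6. Actg2 passed 2-fold, at 2 weeks (1.03). Of 8 fibroblast markers, 8 were higher at 2 weeks and 7 at 8 weeks, the 1 lower being Tcf21 (-0.55). Those over 2-fold were Postn at 2.29 and 2.92, Fn1 at 1.10 at 2 weeks and Col1a1 at 1.20 at 8 weeks. The summed level of the fibroblast markers was 181, 239, 205 and 282, of which Dcn gave 143, 162, 167 and 203. Fibroblasts and smooth muscle also make Tpm1, Tpm2, Tpm3 and Tpm4, and the part of these cells in the tropomyosin values was not tested. Of 5 atrial markers, 2 were measured on all arrays, with a median change of 0.15 and -0.05: Myl4 at -0.01 and -0.52 and Kcna5 at 0.30 and 0.41. Near the background, Myl7 was at least 3.64-fold and Sln at least 2.55-fold lower after TAC at 8 weeks, and Myl7 was also at least 2.84-fold higher in the sham of 8 weeks than in that of 2 weeks. The part of atrial tissue in the values of the sham of 8 weeks was not tested.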

How the data were processed

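Total RNA of mouse hearts, pooled over several mice per group, was labelled with Cy3 and hybridized to 1-colour Agilent SurePrint G3 Mouse GE 8x60K arrays, 1 for each of 4 groups, on 1 slide and in 1 scan. The authors deposited scanner files whose processed signal gives the intensity of each spot after background correction, with no normalization between arrays. The file headers name Feature Extraction 10.7.3.1, while the submitters' processing notes name version 9.1. The authors used GeneSpring GX11 per their methods, with a normalization not given in the sources used here. The deposited value table was these intensity values multiplied, array by array, with a constant (4.26, 4.35, 4.00 and 3.52), with its centring unknown.

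From the files, the log2 signal was centred by subtracting the log2 of its 75th percentile, computed per array from non-control probes, without spots marked as outliers. Spots of a probe were averaged, and a gene was represented by the probe with the highest mean signal. A call needed a difference over 2-fold and a signal well above background on the brighter array. Where the dimmer array was not well above background, the fold is a lower bound. Python 3.11.15, pandas 2.3.3, R 4.3.3 and limma 3.58.1 were used. The calls were also run on the sham arrays with added spot noise and planted changes past 2-fold. Differences between arrays and pools were left out of it, so that run checks the code alone. The number of arrays limits the precision, and with 1 array per group no p-value was computed at a single time. TAC over both times was tested with limma, time as a block and 1 residual degree of freedom, an alternative added after seeing the data.

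The alternatives were the median as centre, quantile normalization, none, the percentile over spots, normexp background correction with an offset of 50, the deposited table, outlier spots kept, the mean over a gene's probes, thresholds of 1.5-fold and 3-fold, and other filters on dim probes. A threshold of 1.25-fold was added after seeing the data.

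The members and lists were chosen with earlier results of these data known. The genes named are the 10 members with all their probes and each list gene past 2-fold. Genes with the nearest profile were to be named for members past 2-fold by their brightest probe, and there were 0. Probe annotation was on mm9, so no gene coordinates are given from it.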

Additional observations from a re-analysis of the deposited data

Results flagged for a closer look

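Tnni1, the troponin I of slow muscle and the fetal heart, was the 1 gene of the 10 whose brightest probe went in opposite directions at the 2 times by over 0.155, which is the spot-to-spot SD (log2) for spots well above background. Its log2 change was 0.85 for TAC over sham at 2 weeks and -0.52 at 8 weeks. The difference between the times was not tested, since each time had 1 array per group. On the sham array of 2 weeks and the TAC array of 8 weeks its signal did not stand well above the background, where the SD of a pair of spots was 0.568, larger than the change at 8 weeks. With normexp the changes were 0.11 and -0.11.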

How the results depend on the processing

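Each group was 1 array, so no replicate number pairs arrays and none could be left out. The fit with time as a block passed 0 of 17 probes of these genes and 0% of all 29262 probes. Its count of 0 is thus no result about these genes. TAC changes of Tnni3, Tnnt1 and Tnnc2 stayed below 0 and those of Tnnc1, Tpm2 and Tpm3 above 0 at both times under the 8 settings of scaling, background and probe choice. Without normalization between arrays every log2 change at 8 weeks moved up by 0.17, and the median of the 9 measured genes went from -0.14 to 0.03. With normexp, which lifts dim signals, the difference of Tnni1 minus Tnni3 was 0.40 at 2 weeks, 0.32 at 8 weeks and -0.09 between shams, that of Tnnt3 minus Tnnt2 was 0.35, 0.05 and -0.03, and 0 probes of the 10 genes passed 2-fold at 8 weeks or between shams. Under quantile normalization Tnnt3 minus Tnnt2 was 0.58 at 2 weeks, and at 8 weeks Tpm2 minus Tpm1 was 0.19 and Tpm3 minus Tpm1 0.52. With the mean over probes, Tpm2 minus Tpm1 was 0.56 at 8 weeks and Tpm3 minus Tpm1 was 0.14 at 2 weeks. The cause was not tested. At a 1.5-fold threshold 1 gene and 1 probe, of Tnni1, passed at 2 weeks. At 3-fold 1 probe passed at 8 weeks, a dim Tnnt3 probe whose bound was only 2.25-fold, and 0 between shams. At 2-fold with both arrays well above background, 1 probe passed at 8 weeks and 0 between shams, against 2.42% and 0.738% of all probes. That 1 was the Tpm1 probe named by ENSMUST00000030185, which was lower after TAC. At 1.25-fold, with the brighter array above background, 3 genes and 3 probes passed at 2 weeks, 6 genes and 10 probes at 8 weeks, and 1 gene and 3 probes between shams. For these counts and those at 1.5-fold and 3-fold, the share of all probes under the same filter was not computed. They are thus no result about these genes. Signal over background limits Tnni1 and both Tnnt3 probes.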
